A study of Harpegnathos saltator with 47 samples.

Results

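The 100 most abundant gene transcripts in the brain of the ant Harpegnathos saltator were followed across 33 animals. They were selected on the level itself, as the 100 of 18429 gene rows with the highest median RPKM over all 33 ants, with annotated rRNA, tRNA and snRNA rows left out. RPKM is the number of reads of a gene per kilobase of its length, scaled to the reads in genes of the library. The 99th and 100th rows, Hsal_01845 and Hsal_00618, had medians of 446 and 439 RPKM, and the next 2 rows, outside the set, Hsal_06455 and Hsal_03593, had medians of 438 and 434 RPKM. The border of the set is therefore narrow, and a high level is the reason for membership and not a result.

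Strand-specific RNA-seq of polyA RNA was made from single brains dissected without their optic lobes. The 12 gamergates and 11 transition workers came from nests set up with 30 young females aged 1 to 3 days and 3 males and no dominant reproductive, and they were taken on day 120. The 10 stable workers carry the colony label stable and the same day, and how they were housed and how old they were is not given separately. No strain, genotype or agent is named for any group, and nests are not told apart in the labels, so the p-values cover the spread among these animals and nothing beyond it. Run dates in the library names give 3 sequencing batches. There were 2 gamergates and 2 transition workers in batch A, 5 ants from each of the groups in batch B, and 5 gamergates, 5 stable workers and 4 transition workers in batch C.

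Harpegnathos is a ponerine ant in which workers keep the ability to mate and lay eggs. When the reproductive is lost, workers duel, and winners become gamergates, which reproduce while remaining workers in body form. In most tissues a small set of transcripts takes a large part of the messenger RNA pool, and such sets usually hold genes for protein synthesis, energy metabolism and the cytoskeleton beside products particular to the tissue. The transcripts of a library share its reads, so a rise of one very abundant transcript leaves fewer reads for the others. In RNA taken from all cells of a sample at once, fewer cells of a type and less RNA per cell cannot be told apart. The gene IDs carry no names in the sources used here, so no member is given a function and the brain label was not checked against marker genes.

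The libraries held 3904943 to 11159675 reads in genes. Depth therefore does not limit the members: no member was at 0 in any ant, and the lowest count of a member in an ant was 178 reads, for Hsal_07671 in gamergate 2. The highest was 207650 reads. A few libraries stood apart. Transition worker 9 had 20.0% of its reads in annotated rRNA rows and transition worker 10 had 7.82%, against a median of 0.941% over all ants. Stable workers 7 and 9 followed, with 7.04% and 5.87%, and all 4 of these ants are of batch C. Transition worker 10 also held the highest value of 25 members and the lowest value of 19 members. Stable worker 3 held the highest value of 25 members and the lowest of 0, transition worker 11 the highest of 0 and the lowest of 18, and 7 ants held neither extreme of any member. Each library name has a prefix, b, H or ND, of no stated meaning, and b stood on 11 of the 12 gamergates, 3 of the 11 transition workers and 0 of the 10 stable workers.

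Together the 100 members took 25.7% ± 4.02 (SD, n = 33) of the summed gene RPKM, with a median of 24.4%. The share was lowest in transition worker 11, at 21.0%, and highest in transition worker 9, at 39.3%. The next 400 rows by rank took 20.1% ± 1.05 (SD, n = 33). The highest 3 members took 4.42% ± 1.01 and the highest 10 took 8.74% ± 1.94 (SD, n = 33 each). Within the members, 23 held 50% of the summed medians. Counted in reads, without the division by length, the members took 20.9% ± 2.52 (SD, n = 33).

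Shares overlapped widely between the 3 groups. Gamergates had 22.2% at the lowest, 24.2% at the median and 30.1% at the highest, with a mean of 25.1% ± 2.59 (SD, n = 12). In transition workers the lowest, median and highest shares were 21.0%, 23.7% and 39.3%, and the mean was 26.1% ± 5.82 (SD, n = 11). Stable workers ran from 21.7% through a median of 26.0% to 31.1%, with a mean of 26.0% ± 3.29 (SD, n = 10). The group means lay within 1 percentage point of each other, less than the SD of any group. Without transition worker 9 the transition mean was 24.7% ± 4.02 (SD, n = 10), and without transition workers 9 and 10 it was 23.7% ± 2.31 (SD, n = 9). Without stable workers 7 and 9 the stable mean was 25.3% ± 3.29 (SD, n = 8). When the rRNA and other rows are counted in the sum, transition worker 9 is the lowest ant, at 15.1%, and the means become 22.8% in gamergates, 21.7% in transition workers and 22.4% in stable workers. These shares were used to choose the members and were not tested.

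The mean shares of the batches spanned more than those of the groups. Batch A had 22.6% ± 0.783 (SD, n = 4), batch B 25.8% ± 2.96 (SD, n = 15) and batch C 26.5% ± 5.15 (SD, n = 14). With the rRNA and other rows in the sum, batch B had 24.5% ± 2.67 (SD, n = 15) and batch C 20.3% ± 2.26 (SD, n = 14), so the order of these batches turned. Within batch B the means were 26.1% in gamergates, 24.4% in transition workers and 27.0% in stable workers. Within batch C they were 25.2%, 29.9% and 25.1% in the same order, so the order of the groups was not the same in both batches. The high value of transition workers in batch C rested on transition workers 9 and 10.

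**Figure D1:**
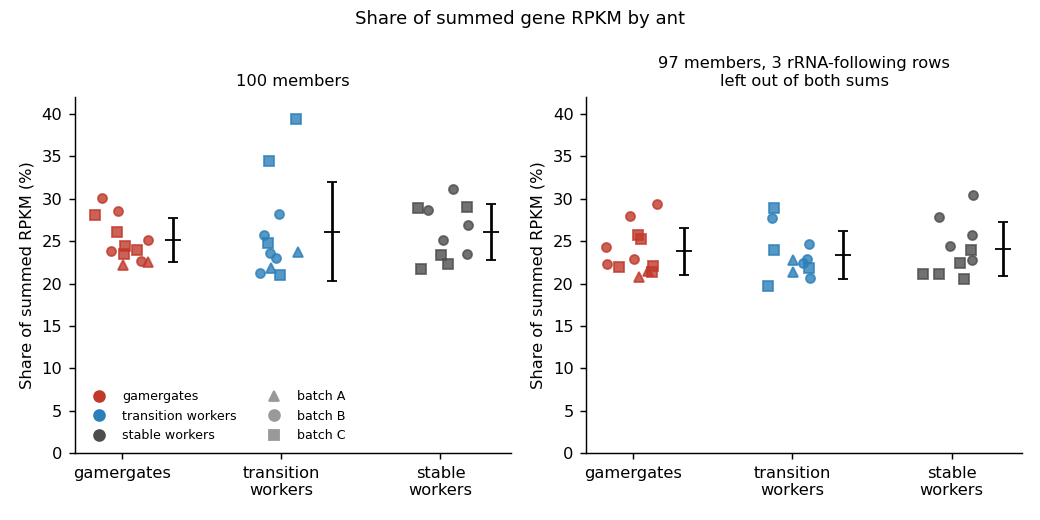
Share of the summed gene RPKM (%) for each ant, by group (colour) and sequencing batch (symbol), with the group mean and SD as black bars. On the left, all 100 members, transition worker 9 at 39.3% and transition worker 10 at 34.4% stand above the other ants; on the right, where 3 members that follow the rRNA rows are left out of both sums, the groups span 19.8% to 30.4%.

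The order at the top of the list differed between batches. Hsal_13508 was the most abundant gene of the table in 13 ants, all of them in batch B. Hsal_11312 led in 10 ants, 2 of batch A, 2 of batch B and 6 of batch C. Hsal_17153 led in 6 ants, all in batch C, and Hsal_13807 led in 4, with 2 each in batches A and C. No other gene led in any ant. Below the top the set was steadier: 47 members were among the 100 highest genes of every ant, and a single ant shared between 77 and 92 of its own 100 highest genes with the members, with a median of 88. Medians taken within groups kept 94 members for gamergates, 96 for transition workers and 96 for stable workers, and medians within batches A, B and C kept 87, 93 and 91. The members were chosen by their median over these same ants, so this overlap is largely set by the choice and is a description.

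Hsal_11312 had the highest median, at 6874 RPKM. Its lowest, median and highest values were 4368, 6255 and 10538 RPKM in gamergates, 5408, 7035 and 14402 RPKM in transition workers, and 5691, 7540.4 and 12260.3 RPKM in stable workers. The groups overlapped over most of their range. The fitted log2 difference was -0.29 between gamergates and transition workers (95% confidence interval -0.64 to 0.07) and -0.33 between gamergates and stable workers (-0.70 to 0.05).

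Hsal_13508 followed closely, with a median of 6831 RPKM. It ran from 3398 through 6822 to 11571 RPKM in gamergates, from 3704 through 6548 to 12833 RPKM in transition workers, and from 4961 through 7196 to 15382 RPKM in stable workers. Its values were separated by batch rather than by group: the 4 ants of batch A lay between 3398 and 3984 RPKM, below every ant of batch B, where the lowest value was 6312 RPKM, and of batch C, where it was 4908 RPKM. Batch, given group, held 51.7% of the sum of squares of log2 Hsal_13508, and group, given batch, held 0.0977%.

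Hsal_13807 had a median of 5827 RPKM. In gamergates its lowest, median and highest values were 4964, 6474 and 10027 RPKM, in transition workers 3243, 4899 and 7538 RPKM, and in stable workers 3705, 5368 and 9288 RPKM. Gamergates were centred higher, but the ranges overlapped. The fitted log2 difference of gamergates from transition workers was 0.48 (95% confidence interval 0.13 to 0.84), with an unadjusted p of 0.00876 and, in limma, an adjusted p of 0.347, so it was not called.

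Hsal_04673 was narrower than the members above it. It spanned 3661 to 4778 RPKM in gamergates, 2647 to 4737 RPKM in transition workers and 3199 to 5025 RPKM in stable workers, with medians of 3903, 4238 and 3696 RPKM. The lowest value belonged to transition worker 10. At 3929 bases it is also long, and it had more reads than any other member, with a median of 112035 per ant.

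The fifth member, Hsal_17153, varied with the rRNA rows and is described with them. The next 5 members were Hsal_10573, Hsal_04120, Hsal_09428, Hsal_01172 and Hsal_07195, with medians of 2044, 1996, 1891, 1882 and 1814 RPKM. None of these 5 had an adjusted p under 0.05 in limma between any of the groups, and their absolute fitted log2 differences between groups were at most 0.20. Hsal_01172 and Hsal_01171, another member with a median of 1049 RPKM, have consecutive IDs and the same length of 486 bases. If they are near-identical copies the counting could split their reads, so their separate levels are uncertain.

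**Figure D2:**
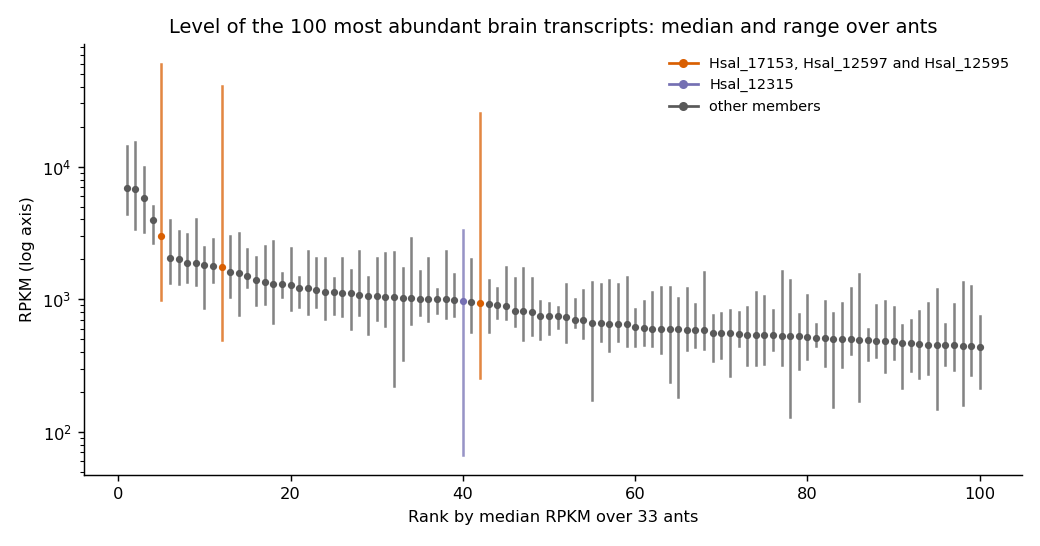
Median RPKM (points) and range over 33 ants (lines) of the 100 members, by rank of the median, on a log axis. The first 3 members lie between 5827 and 6874 RPKM and the last at 439 RPKM; Hsal_17153, Hsal_12597, Hsal_12595 and Hsal_12315 have the longest lines.

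Division by length shaped the list. Lengths recovered from the RPKM steps ran from 139 bases for Hsal_07671 to 11266 bases for Hsal_13133, with a median of 1464 bases over the members and 1535 bases over all 11145 genes tested. Of the members 18 were shorter than 500 bases, beside 14.5% of the genes tested. Of the members 53 were among the 100 highest genes by reads. Hsal_13133 ranked 27th by median RPKM and 2nd among the members by reads, with a median of 96010.0 reads per ant, while Hsal_07671 had a median of 1033 RPKM from a median of 1058 reads.

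Members differed widely in their spread between ants. The highest ant exceeded the lowest by a median of 2.93-fold, from 1.45-fold to 101.02-fold. This ratio was under 2-fold for 15 members, from 2-fold to under 4-fold for 65, and 4-fold or more for 20, of which 6 reached 10-fold. The SD of log2(RPKM + 1) within group and batch had a median of 0.30 over the members, 0.29 over the next 400 rows by rank and 0.37 over all 11234 rows tested. Spread on this scale depends on the level, so these values are a description.

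The steadiest members were Hsal_07890, Hsal_06038, Hsal_02085, Hsal_03211 and Hsal_07459, with SDs of 0.11, 0.13, 0.13, 0.14 and 0.14. Hsal_07890 had a lowest, median and highest value of 846, 962 and 1101 RPKM in gamergates, 789, 949 and 1186 RPKM in transition workers, and 849, 1062 and 1177 RPKM in stable workers. The 3 groups covered nearly the same range. Hsal_06038 was as tight, between 602 and 874 RPKM over all ants. A small SD within batches did not mean equal batches: Hsal_02085 averaged 625 ± 60.2 RPKM (SD, n = 15) in batch B and 479 ± 46.3 RPKM (SD, n = 14) in batch C.

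The widest member was Hsal_12315, with an SD of 1.77. In gamergates its lowest, median and highest values were 66.7, 959 and 2421 RPKM, in transition workers 69.9, 1339.9 and 2365 RPKM, and in stable workers 110.0, 813 and 3310.4 RPKM. Low ants occurred in every group. The sorted values had a gap between stable worker 9 at 176 RPKM and gamergate 7 at 345 RPKM. Below it lay 8 ants, 1 gamergate, 4 transition workers and 3 stable workers, and 4 of them were in batch B and 4 in batch C. The other 25 ants lay between 345 and 3310.4 RPKM. No group difference of Hsal_12315 was called, and the confidence intervals were wide, from -1.01 to 1.83 on the log2 scale between gamergates and transition workers.

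The rows whose log2 values varied most like Hsal_12315 over the 33 ants, after group and batch were taken out, were not members. They were Hsal_01888, with a correlation of 0.969, Hsal_11245 with 0.964, Hsal_01174 with 0.957 and Hsal_11244 with 0.947. Hsal_01888 was between 1.92 and 18.4 RPKM in the 8 ants low in Hsal_12315 and between 16.9 and 286 RPKM in the other 25. Hsal_11245 was between 1.11 and 21.6 RPKM in the same 8 ants and between 14.5 and 403 RPKM in the rest. All of these values share the same libraries, the split was made on Hsal_12315 after its values were seen, and the correlations are given as a description.

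Hsal_07502 was the fifth widest, with an SD of 0.74. It ran from 129 through 423 to 618 RPKM in gamergates, from 132 through 549 to 1404 RPKM in transition workers, and from 408 through 684 to 916 RPKM in stable workers. The low end of stable workers was inside the range of both other groups. The nearest rows were again no members, led by Hsal_12613 with a correlation of 0.968 over 33 ants, whose level ran from 40.9 RPKM in gamergate 7 to 592 RPKM in transition worker 4, the ants that were also lowest and highest in Hsal_07502.

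**Figure D3:**
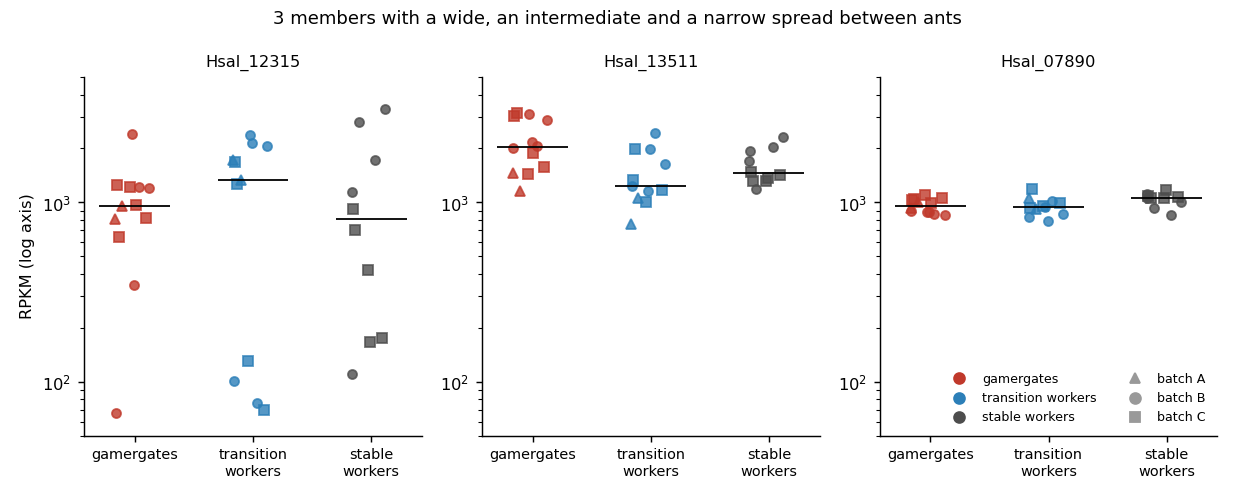
RPKM (log axis) of Hsal_12315, Hsal_13511 and Hsal_07890 in each ant, by group (colour) and batch (symbol), with the group median as a line. Hsal_12315 spreads from 66.7 to 3310.4 RPKM with low ants in all 3 groups, Hsal_13511 is centred higher in gamergates with overlapping ranges, and Hsal_07890 stays between 789 and 1186 RPKM.

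Hsal_17153, Hsal_12597 and Hsal_12595 followed the annotated rRNA rows. Hsal_17153 had a lowest, median and highest value of 988, 2924 and 6948 RPKM in gamergates, 1629.6, 2165 and 59939.9 RPKM in transition workers, and 1328, 3161 and 19799.7 RPKM in stable workers. In Hsal_12597 the highest value was 4556 RPKM in gamergates, 40842 RPKM in transition workers and 13561 RPKM in stable workers, and in Hsal_12595 it was 3199, 25599 and 7643 RPKM in the same order. The highest ant was transition worker 9 in each, the ant with the highest share of reads in rRNA rows. The mean of Hsal_17153 in transition workers was 9155 ± 17589 RPKM (SD, n = 11) with this ant and 4077 ± 5342 RPKM (SD, n = 10) without it.

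On log scales the Pearson correlation with the share of reads in rRNA rows over 33 ants was 0.969 for Hsal_17153, 0.982 for Hsal_12597 and 0.960 for Hsal_12595, and Spearman's rho was 0.921, 0.959 and 0.909. Within batch B, where that share stayed between 0.317% and 1.17%, the correlations were 0.961, 0.934 and 0.841 (n = 15). Within batch C they were 0.993, 0.995 and 0.997 (n = 14), and without transition workers 9 and 10 they were 0.948, 0.970 and 0.933 (n = 31). The points share library and depth, and these members were picked out after their values were seen, so no test is given. Among the other 97 members the highest correlation with the summed rRNA rows, after group and batch were taken out, was 0.515, for Hsal_11060, and the median was 0.18. The lengths are 160, 412 and 824 bases, and the files list the 3 rows as genes and not as rRNA. Whether reads of rRNA were counted in them was not tested.

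These 3 members took 2.60% ± 4.07 of the summed gene RPKM (SD, n = 33), from 0.435% in gamergate 7 to 22.4% in transition worker 9. With them left out of both sums, the other 97 members took 23.8% ± 2.77 in gamergates (SD, n = 12), 24.0% ± 3.19 in stable workers (SD, n = 10) and 23.4% ± 2.83 in transition workers (SD, n = 11). Transition worker 9 then had 21.8%, inside the range of the other ants. Transition worker 10 still had 28.9%, the highest of the transition workers and of batch C. By batch the 97 members took 21.6% ± 0.807 (SD, n = 4) in batch A, 25.1% ± 2.92 (SD, n = 15) in batch B and 22.8% ± 2.47 (SD, n = 14) in batch C, so that batch B was then the highest. The spread over all ants fell from an SD of 4.02 to one of 2.84 percentage points.

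**Figure D4:**
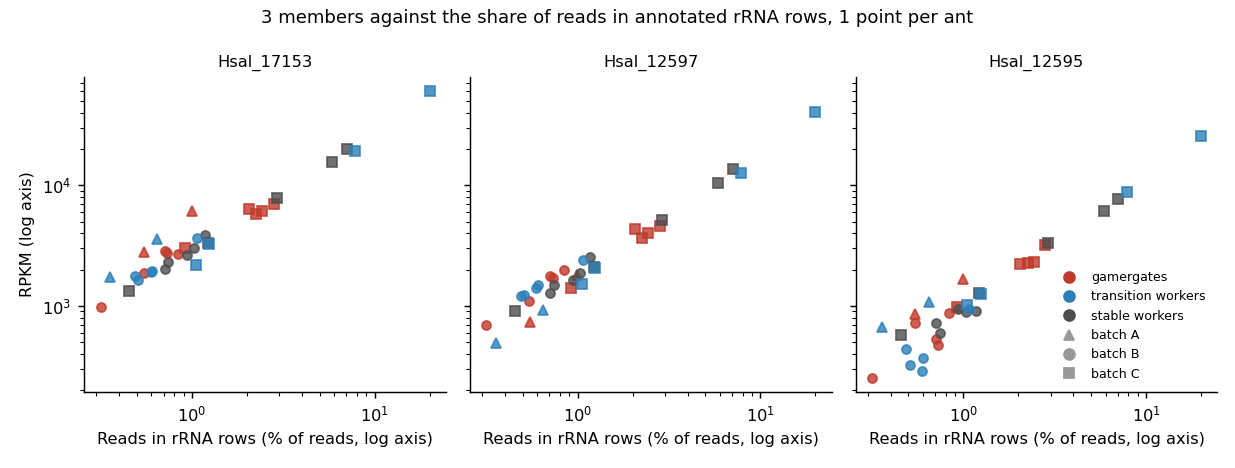
RPKM of Hsal_17153, Hsal_12597 and Hsal_12595 against the share of reads in annotated rRNA rows (%), both on log axes, 1 point per ant, by group (colour) and batch (symbol). The points rise together, with Pearson correlations of 0.969, 0.982 and 0.960, and transition worker 9 is at the top right of each panel.

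The comparison of gamergates with transition workers asks which abundant transcripts differ by caste within one kind of nest. In limma, 0 of the 100 members had an adjusted p under 0.05, where 0.107% of all rows tested did. At an unadjusted p under 0.05 there were 13 members, 7 higher and 6 lower in gamergates, beside 9.39% of all rows, with 488 higher and 567 lower, and 17.5% of the next 400 rows by rank, with 24 higher and 46 lower. The median fitted log2 difference of the members was -0.00, beside -0.02 over all rows. The 95% confidence interval stayed within a 2-fold change in either direction for 94 members, and its median half-width was 0.26 on the log2 scale. A change of 2-fold or more was thus outside the interval for these 94 members.

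The smallest p belonged to Hsal_13511. Its lowest, median and highest values were 1163, 2049.7 and 3164 RPKM in gamergates, 762, 1228 and 2453 RPKM in transition workers, and 1196, 1459 and 2304 RPKM in stable workers. Gamergates were centred above both worker groups, and all ranges overlapped. Gamergates differed from transition workers by 0.60 on the log2 scale (SE 0.151), with an unadjusted p of 0.000373 and, in limma, an adjusted p of 0.111. Within batch B it was 0.57 and within batch C 0.66. The authors' deposited table, made with another test on these groups, gives a log2 difference of 0.59 and an adjusted p of 0.0471 for Hsal_13511. It is the only member under 0.05 in the authors' deposited table, where 0.567% of the rows with an adjusted p are under it.

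Hsal_11603 had the next smallest p. It ran from 837 through 1505 to 2448 RPKM in gamergates, from 825 through 1199 to 1889 RPKM in transition workers, and from 934 through 1068 to 1711 RPKM in stable workers. The lowest ants of the 3 groups were close together, and the upper end was highest in gamergates. Gamergates differed from transition workers by 0.41 on the log2 scale (SE 0.136, adjusted p = 0.279 in limma). Among all rows tested, the variation of Hsal_13511 over ants was most like that of Hsal_13807, with a correlation of 0.902, and of Hsal_11603, with 0.898 (n = 33, group and batch taken out). The differences of these 3 members are therefore not independent of each other.

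Transition and stable workers are of one caste and came from different kinds of colony. Of the members 0 had an adjusted p under 0.05 in limma, where 0.0089% of all rows did, and 0 had an unadjusted p under 0.05, where 2.96% of all rows and 2% of the next 400 by rank did. Without the 4 ants highest in rRNA rows, 2 members had such an unadjusted p and again 0 an adjusted p under 0.05. The share of all rows in that smaller fit is not given here, so the 2 members cannot be set against it. Their median log2 difference was -0.04, beside -0.00 over all rows. Within batch B the median of the members was -0.21 and within batch C it was 0.08, so the sign was not shared. The confidence interval stayed within a 2-fold change for 97 members. The smallest p-values belonged to Hsal_03211, Hsal_07890 and Hsal_12071, of which the first 2 are among the 5 steadiest members, and their log2 differences were -0.14 (SE 0.0741), -0.13 (SE 0.0690) and -0.16 (SE 0.0935). Hsal_03211 had medians of 594 RPKM in transition workers and 695 RPKM in stable workers, inside ranges of 445 to 851 and 509 to 852 RPKM.

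Gamergates and stable workers differ in both caste and kind of colony. Again 0 of the members had an adjusted p under 0.05 in limma, where 0.231% of all rows did. At an unadjusted p under 0.05 there were 16 members, 3 higher and 13 lower in gamergates, beside 7.56% of all rows, with 267 higher and 582 lower. The next 400 rows by rank had 18%, with 9 higher and 63 lower, so lower rows outnumbered higher ones there too. The median log2 difference was -0.04, beside -0.02 over all rows, and it was -0.15 within batch B and 0.07 within batch C. The interval stayed within a 2-fold change for 93 members. These 3 comparisons share groups, so the counts are not independent of each other.

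Hsal_13511 also had the smallest p in this comparison, with a log2 difference of 0.51 (SE 0.158) and an adjusted p of 0.276 in limma. Hsal_11018 was next among the members. It ran from 319 through 407 to 502 RPKM in gamergates, from 376 through 437 to 646 RPKM in transition workers and from 378 through 498 to 635 RPKM in stable workers. Its log2 difference between gamergates and stable workers was -0.27 (SE 0.0887, adjusted p = 0.326 in limma), at -0.26 within batch B and -0.25 within batch C. Hsal_01197 had a log2 difference of -0.29 (SE 0.0985, adjusted p = 0.356 in limma), but -0.45 within batch B and -0.07 within batch C. The largest fitted differences of all members in this comparison were -0.73 for Hsal_07502 and -0.72 for Hsal_11069, with adjusted p-values of 0.522 and 0.410 in limma. Both were larger within batch B. Hsal_07502 was at -0.98 within batch B and -0.26 within batch C, and Hsal_11069 at -1.12 and -0.16.

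**Figure D5:**
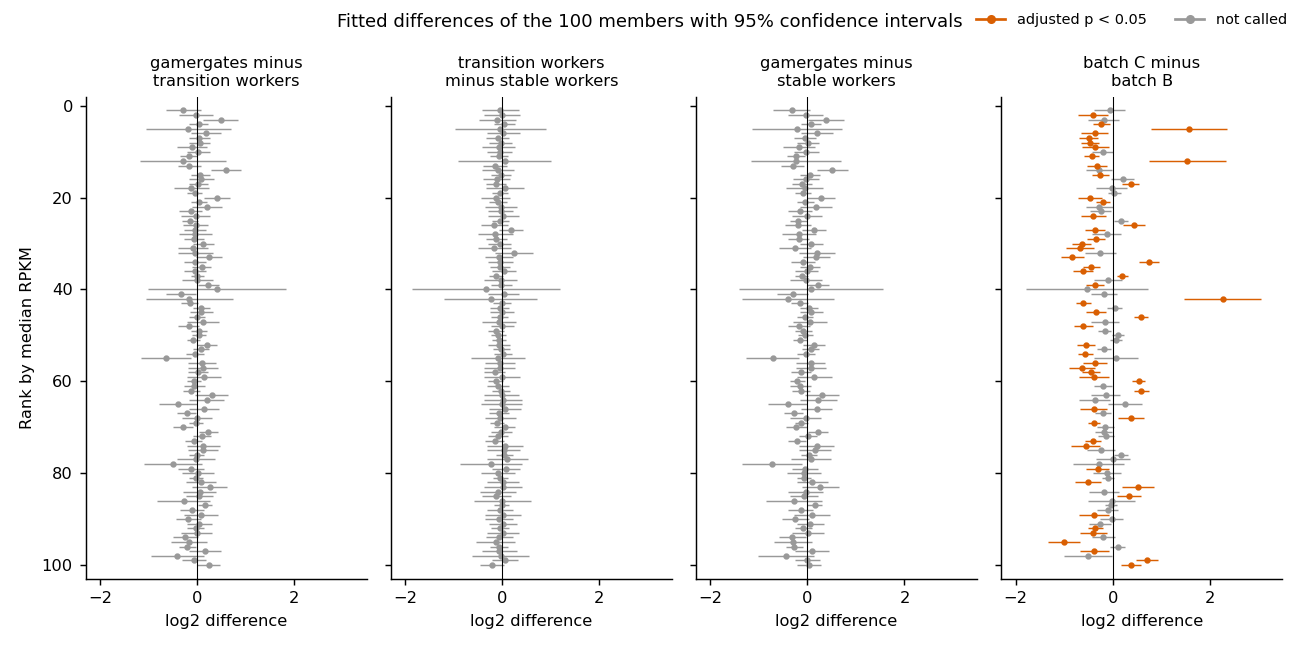
Fitted log2 differences with 95% confidence intervals for the 100 members, ordered by rank of median RPKM, in 3 comparisons of groups and in batch C minus batch B. Orange marks members with an adjusted p under 0.05 in limma: 0 in each comparison of groups and 55 between the batches.

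Many members were called between sequencing batches, as were many rows of the whole table. Comparisons of groups called few rows, among members and other rows alike. Between batches C and B, with group in the model, 55 of the 100 members had an adjusted p under 0.05 in limma, beside 35.5% of all rows tested and 47.25% of the next 400 rows by rank. Of these 15 were higher in batch C, where 19.1% of all rows were, and 40 were lower in batch C, where 16.4% were. The median log2 difference of the members was -0.20, beside -0.02 over all rows. Without the 3 members that follow the rRNA rows there were 12 higher and 40 lower. Batch, given group, held a median of 31.1% of the sum of squares of a member and 20.8% over all rows. Group, given batch, held 3.54% and 3.85%. The batch part exceeded the group part for 87% of the members and 82.7% of all rows tested. Besides the run date, the labels show that the 14 ants with 2 runs were those of batch C. All workers of batch C had the library name prefix H, while workers of batches A and B had ND, H or b. Whether these differences bear on the values was not tested.

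Hsal_08306 fell furthest in batch C. It averaged 717 ± 236 RPKM (SD, n = 15) in batch B and 347 ± 80.9 RPKM (SD, n = 14) in batch C, a log2 difference of -1.01 (SE 0.163). Hsal_03071 averaged 1282 ± 234 and 734 ± 177 RPKM in the same batches, at -0.83 (SE 0.118), and Hsal_01171 averaged 1424 ± 461 and 873 ± 214 RPKM, at -0.67 (SE 0.138). Their adjusted p-values in limma were 1.71e-05, 2.99e-06 and 0.0003. In the other direction the largest differences were those of the rRNA-following members, 2.26 (SE 0.394) for Hsal_12595, 1.58 (SE 0.383) for Hsal_17153 and 1.54 (SE 0.388) for Hsal_12597. The rRNA rows took 0.734% ± 0.240 of reads in batch B (SD, n = 15) and 4.14% ± 5.11 in batch C (SD, n = 14).

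In 4 sets of 25 members ordered by length, the batch difference did not run steadily with length, and of these sets the longest alone had a median above 0. Of the 25 shortest members, from 139 to 621 bases, 3 were higher and 11 lower in batch C, with a median log2 difference of -0.25. From 644 to 1452 bases 2 of 25 were higher and 13 lower, with a median of -0.38, and from 1476 to 2575 bases 2 of 25 were higher and 9 lower, with a median of -0.25. Of the 25 longest, from 2684 to 11266 bases, 8 were higher and 7 lower, with a median of 0.11. Of all rows tested, 19.1% were higher and 16.4% lower in batch C, and shares of other rows of the same lengths were not taken. Over the 100 members, length on a log scale and the batch difference had a Pearson r of 0.083 and a Spearman rho of 0.26. Across the 97 members that do not follow rRNA both were 0.35. They were 0.22 and 0.29 over the next 400 rows by rank, and -0.11 and -0.06 over all 11145 genes tested. These are correlations across genes, which are not independent replicates, and they are a description. Hsal_09846, at 6767 bases, was an example of a long member that was higher, at 736 ± 92.7 RPKM (SD, n = 15) in batch B and 1107 ± 117 RPKM (SD, n = 14) in batch C. Hsal_13133, the longest member, went the other way, at 1240 ± 252 RPKM (SD, n = 15) in batch B and 955 ± 150 RPKM (SD, n = 14) in batch C. Hsal_09846 was chosen after its values were seen.

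Batch A, with 4 ants and no stable workers, stood apart for single members chosen after their values were seen. Hsal_10010 averaged 2235 ± 148 RPKM (SD, n = 4) in batch A, 1084 ± 341 RPKM (SD, n = 15) in batch B and 1010.2 ± 287 RPKM (SD, n = 14) in batch C, and the lowest ant of batch A, at 2017 RPKM, lay above every other ant. Hsal_07671, the shortest member, averaged 325 ± 97 RPKM in batch A, 1245 ± 321 RPKM in batch B and 1070.0 ± 424 RPKM in batch C, and its highest ant of batch A, at 449 RPKM, lay below every other ant.

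Many members also varied together from ant to ant within groups and batches, and some varied in opposite directions. Of the 4950 pairs of members, 20.6% had a correlation of at least 0.7 over the 33 ants with group and batch taken out, beside 13.8% of the pairs among the next 100 rows by rank. Over all pairs of members the median was 0.36, the lowest -0.83 and the highest 0.99. Among the next 100 rows these were 0.18, -0.90 and 0.98. Average-linkage clustering at a distance of 0.5 gave 7 clusters of 3 or more members, which held 90 of the 100. The largest had 56 members, with Hsal_11312, Hsal_13508, Hsal_13807 and Hsal_13511 among them, a mean correlation of 0.71 and a lowest of -0.13. A second, of 13 members, held Hsal_04673, Hsal_04120, Hsal_09428 and Hsal_03071, with a mean correlation of 0.65. The 3 rRNA-following members formed a cluster of their own, with a mean correlation of 0.97. Values of one library share its depth and composition, so joint variation of very abundant rows is a description of these libraries.

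The clusters were formed without the batch difference, yet they differed in it. In the second cluster 12 of the 13 members were lower and 0 higher in batch C, with a median log2 difference of -0.44. In the cluster of 56 members 24 were lower and 3 higher, with a median of -0.25. A cluster of 4 long members, Hsal_06360, Hsal_09892, Hsal_09846 and Hsal_01845, had 4 higher and 0 lower, with a median of 0.65. Over all 100 members, 40 were lower and 15 higher in batch C. Of all rows tested, 16.4% were lower and 19.1% higher. Clusters were found from these data and their counts were not tested. Median differences between groups stayed small in the 7 clusters: between gamergates and transition workers they ran from -0.28, in the cluster of Hsal_07502 and Hsal_08306, to 0.10, in the cluster of Hsal_07195.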

How the data were processed

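The authors deposited RPKM values, 1 column per ant for 33 ants and 19198 rows. The labels list 47 runs, and 14 ants, those of batch C, had 2. The sources used here do not tell which runs stand behind their values. STAR 2.5.0b and, with no version, DESeq2 are named in the submitters' processing notes. The genome build, the annotation and the way of counting are not given in the labels. There were 0 further per-sample columns. A second table, the authors' deposited comparison of gamergates and transition workers, holds a mean signal per gene over ants, its log2 fold change, and p-values before and after adjustment. Its log2 values were turned in sign so that positive means higher in gamergates.

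RPKM values were whole multiples of the worth of 1 read: of 404997 values, 100% came out whole within 0.01 reads for 15320 rows, which gave reads and lengths. Of the rows, 11234 averaged 0.5 RPKM or more, 11145 of them genes, and these were tested on log2(RPKM + 1) in R 4.3.3 by limma 3.58.1, using lmFit, contrasts.fit and eBayes with a trend, over all 33 ants with group and batch as terms. The p-values are two-sided and adjusted over all rows by the Benjamini-Hochberg method, with a threshold of 0.05, and the fit was tested on simulated data. Fold changes on this scale understate those of low rows. Each ant had between 3904943 and 11159675 reads in genes; intervals over ants do not separate counting error from differences between ants.

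Groups came from the caste and colony labels, batches from run dates in library names. The replicate numbers were not shown to pair ants: of 31 pairs of ants with the same number, 13 had a correlation of deviations over 0.1. Ants with different numbers were not compared, so this count cannot decide whether the numbers pair ants. Members, lists and tests were chosen with earlier results of these data known. Members named in the text are the 10 with the highest median, the 3 with the smallest p in each comparison of groups, the 5 widest and 5 steadiest, the 3 with the largest batch difference in each direction, and ranks 99 to 102; others are marked as chosen after their values were seen or are given as extremes or cluster members. Alternatives were other pseudocounts, filters, scalings, terms, subsets of ants and sizes of the member list. The planned count-model tests on recovered reads were not run because the deposited unit is RPKM; limma's voom on those reads was added in their place, after the data were seen, as was leaving out transition workers 9 and 10, without or with stable workers 7 and 9. Lists of named genes and cell type markers were not applied because the IDs carry no names in the sources used here.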

Additional observations from a re-analysis of the deposited data

Results flagged for a closer look

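In the 10 stable workers, 30 values were searched for 1 ant well away from its group: the 29 named members and the share of summed RPKM. By chance about 1 in 20 such groups is picked out. The gap to the next ant was above the limit of Dixon's test for 2 of them, both with stable worker 3 at the top. Hsal_13807 was at 9290 RPKM in stable worker 3 and at 6640 RPKM in the next ant, a gap of 0.475 of the range. Hsal_07459 was at 934 RPKM in the same ant and at 832 RPKM in the next, a gap of 0.469 of the range. Stable worker 3 held the highest value of 25 of the 100 members over all 33 ants.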

How the results depend on the processing

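The count of 0 members between groups stayed 0 for all 3 comparisons in every alternative run, including each ant left out in turn (0 to 0), the library name prefix as a term, voom on recovered reads and the replicate block. Between batches C and B the 55 members called became 31 of the 50 and 99 of the 200 highest rows, and 48 to 60 with 1 ant left out. They became 42 with median-ratio scaling and 63 with quantile normalization. Without transition workers 9 and 10 there were 61, and without these and stable workers 7 and 9 there were 56. With the replicate block 0 were called. Few replicate numbers hold ants of both batches, so that fit had little to compare them with, and its precision was not examined. The share of all rows called under each alternative is not given here. These counts therefore do not tell whether the excess of the members over all rows changed. The mean share of the members moved with the size of the list, to 18.9% in gamergates, 20.0% in transition workers and 19.7% in stable workers for 50 rows, and to 32.7%, 33.6% and 33.9% for 200 rows. As a share of reads it was 20.6%, 20.9% and 21.3%, and over all rows it was 22.8%, 21.7% and 22.4%. With 1 ant left out it ran from 24.6% to 25.3% in gamergates, 24.7% to 26.6% in transition workers and 25.5% to 26.5% in stable workers. Among the differences of 15 named results, 705 alternative values kept direction and side of the threshold, 6 lost the call, all between batches under the replicate block, and 0 reversed. The alternatives were 33 fits with 1 ant left out, which share nearly all ants, and at most 16 others. Differences between groups were uncalled in the main fit, so these counts say little of how firm they are. The pairing by replicate number rests on the number alone, with correlations from -0.401 to 0.469. Tests between groups cannot show changes well under 2-fold in the wider members.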
